A study of Homo sapiens with 6 samples.

Results

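ZNF395 belongs to a small group of related zinc finger proteins with SLC2A4RG and ZNF704, and RNA levels of all 3 genes were followed in renal carcinoma cells in which ZNF395 had been knocked down. The genes were chosen by symbol as the knockdown target and its 2 relatives, and each has 1 row among the 32357 genes of the count table. Short hairpin RNA against ZNF395 was delivered by retrovirus, packaged in HEK293T cells, into 2 human clear cell renal cell carcinoma lines, A-498 and 786-O, and transduced cells were kept by puromycin selection for 3 days. Each line has 1 library with hairpin 1, 1 with hairpin 3 and 1 with a non-targeting control hairpin, so the controls carry the vector and the selection as well. The comparison asks how the transcriptome differs with and without ZNF395 knockdown. The labels give no separate cultures per construct, so all p-values measure only the spread that a model leaves between these 6 libraries. In the hairpin comparisons that spread holds how the 2 lines differ in a construct's effect. In the pooled knockdown and line comparisons it holds how the 2 hairpins differ and how the 2 lines differ in the knockdown effect. For the difference between lines in the knockdown effect it holds how the 2 hairpins differ within each line. Technical spread is mixed into all of these and cannot be told apart. Whether either hairpin matches the RNA of the relatives was not tested. In bulk RNA fewer cells of a type and less RNA per cell cannot be told apart.

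The family is known under several older names that describe its functions. SLC2A4RG was called GEF and HDBP1, for its binding to the promoters of SLC2A4, which encodes the insulin-regulated glucose transporter GLUT4, and of HTT, the Huntington disease gene. ZNF395 was called HDBP2 for binding the same HTT promoter element and PBF for binding papillomavirus DNA. It shuttles between nucleus and cytoplasm, and in other human cells it is known as a hypoxia-linked activator of interferon-stimulated and inflammatory genes. ZNF704 corresponds to a mouse gene called Gig1, for glucocorticoid-induced gene.

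The GCCGGCG element that SLC2A4RG and ZNF395 are known to bind in the HTT promoter is shown because HTT was among the genes that moved with hairpin 3. Promoter sequences are those of RefSeq on GRCh38.p14, from 250 bases before to 50 bases after the annotated gene start, and matches to GCCGGCG on either strand are in capitals. The HTT window lies on the plus strand at chr4:3074431-3074730 and the SLC2A4RG window on the plus strand at chr20:63739526-63739825.
HTT: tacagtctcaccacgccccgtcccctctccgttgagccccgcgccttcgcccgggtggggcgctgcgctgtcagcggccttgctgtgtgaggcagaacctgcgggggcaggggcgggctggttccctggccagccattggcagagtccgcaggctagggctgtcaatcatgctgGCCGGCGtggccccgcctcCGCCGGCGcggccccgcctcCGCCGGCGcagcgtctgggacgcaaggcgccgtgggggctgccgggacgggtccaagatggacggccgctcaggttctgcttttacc
SLC2A4RG: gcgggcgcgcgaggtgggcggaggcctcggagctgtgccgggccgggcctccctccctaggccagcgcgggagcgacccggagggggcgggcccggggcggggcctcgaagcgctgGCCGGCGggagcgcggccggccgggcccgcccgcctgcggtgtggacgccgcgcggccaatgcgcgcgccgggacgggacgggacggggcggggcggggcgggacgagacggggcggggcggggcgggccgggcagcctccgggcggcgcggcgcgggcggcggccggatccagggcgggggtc
The HTT promoter holds 3 matches on the plus strand, and 2 of them overlap a match on the minus strand, so 5 matches are counted in all. The SLC2A4RG promoter holds 1 match, on the plus strand. Of 35116 promoters of this length, 11% hold at least 1 match and 0.75% hold at least 3. Among the 3377 promoters with a GC content of at least 75%, the shares are 39.3% and 4.83%. The GC content is 73% in the HTT window and 87% in the SLC2A4RG window. A match only describes these letters and shows no binding. Promoters of ZNF395, ZNF704 and SLC2A4 were not used here.

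Total counts ran from 77534125 to 99147218 per library. All 3 genes passed the filter on low counts that left 20144 genes for testing, ZNF704 through its A-498 libraries alone. Of 10 renal carcinoma markers, all had reads in A-498 and 9 or 10 had reads in 786-O, and their sum ran from 2684 to 3063 CPM in A-498 and from 3442 to 3620 CPM in 786-O. The renal markers PAX8 (157 to 256 CPM) and PAX2 (17.7 to 26.6 CPM) were present in every library. CPM is the count scaled to a common library total after TMM scaling, which corrects for library composition. CA9, a target of hypoxia signalling and a usual marker of this cancer, had 32 to 164 counts in A-498 and 0 to 1 counts in 786-O. Immune markers summed to at most 0.271 CPM and endothelial markers to at most 0.293 CPM in any library. The 4 fibroblast markers summed to between 19.5 and 41.3 CPM in A-498 and between 2.81 and 5.51 CPM in 786-O. COL1A1 made up most of that, at up to 40.8 CPM, while DCN had at most 4 counts and COL1A2 at most 3. Of the 10 renal markers 1 was called with hairpin 3 against the control, where 6.71% of all genes were. It was EPAS1, which encodes HIF-2alpha (log2 fold change 0.78, SE 0.131, adjusted p = 0.0237 in edgeR's quasi-likelihood test), and the call was lost without the control of A-498 (adjusted p = 0.191) or that of 786-O (0.156). With hairpin 1 against the control edgeR called 0 of the 10 and DESeq2 1, where edgeR called 0.149% of all genes. Only 1 of these fold changes was positive (median -0.39). Against the control, hairpins 1 and 3 gave -1.05 and -0.15 for EGLN3 and -1.60 and 0.43 for CA9. They gave -0.90 and 1.16 for NDUFA4L2 and -0.46 and 0.78 for EPAS1. Between the hairpins these 4 of the 10 were called, each higher with hairpin 3 than with hairpin 1, where 9.48% of all genes were called. That of EPAS1 held without each library in turn, whereas each of the other 3 was lost without at least 1 library, and that of CA9 also with DESeq2 (adjusted p = 0.167). The part of these differences in the results was not tested.

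ZNF395 was lower in every knockdown library, but the depth of its fall was not the same for both hairpins in both lines. In A-498 the level was 14.5 CPM with hairpin 1 and 14.3 CPM with hairpin 3, against 67.9 CPM in the control. In 786-O it was 24.7 CPM with hairpin 1 and 13.5 CPM with hairpin 3, against 96.3 CPM in the control. The 4 knockdown libraries do not overlap the 2 controls, and the share of all genes that separate in this way was not computed. Over both lines the log2 fold change of ZNF395 was -2.08 with hairpin 1 (adjusted p = 0.0269, SE 0.209). It was -2.52 with hairpin 3 (adjusted p = 0.00973, SE 0.213), both by edgeR's quasi-likelihood test. Of all 20144 genes, 0.149% were called with hairpin 1 and 6.71% with hairpin 3 against the control. The call with hairpin 1 was lost without the control of A-498 (adjusted p = 0.0612), the 786-O control (0.0554) or the hairpin 1 library of 786-O (0.1), while that with hairpin 3 held without each library in turn. Set against hairpin 1, hairpin 3 left 98.1% of ZNF395 in A-498 (95% counting interval 90.7 to 106%) and 54.6% in 786-O (50.6 to 59%). These intervals and all others on counts cover counting error only. Across both lines the difference between the hairpins did not pass edgeR's quasi-likelihood test (log2 fold change -0.44, SE 0.205, adjusted p = 0.217). The fold change was -0.82 without the hairpin 3 library of A-498, where hairpin 3 is the 786-O library alone.

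**Figure D1:**
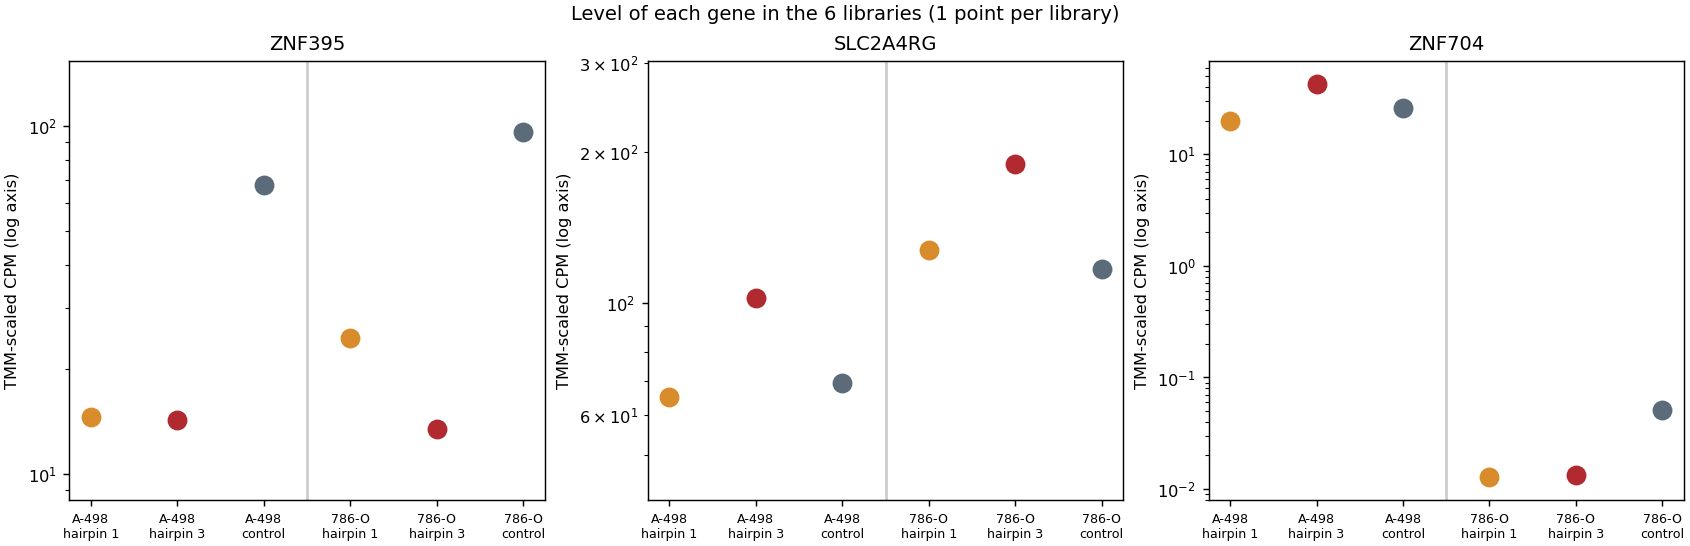
TMM-scaled CPM on a log axis for ZNF395, SLC2A4RG and ZNF704, with 1 point per library and the lines separated by a grey rule. ZNF395 is lowest in the 4 knockdown libraries (13.5 to 24.7 CPM), SLC2A4RG is highest with hairpin 3 in each line (102 CPM in A-498 and 189 CPM in 786-O), and ZNF704 is above 19 CPM in A-498 only.

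SLC2A4RG, the factor named for the GLUT4 promoter, was higher with hairpin 3 in both lines and stayed near its control with hairpin 1. In A-498 its level was 65.1 CPM with hairpin 1 and 102 CPM with hairpin 3, against 69.4 CPM in the control. In 786-O it was 128 CPM with hairpin 1 and 189 CPM with hairpin 3, against 117 CPM in the control. Hairpin 3 libraries were the highest of their line in both cases. Relative to the control, hairpin 3 gave 1.47 times the level in A-498 (95% counting interval 1.43 to 1.52) and 1.62 times in 786-O (1.58 to 1.66). With hairpin 1 the ratio was 0.937 in A-498 (0.904 to 0.972) and 1.09 in 786-O (1.06 to 1.12), which lie on opposite sides of 1.

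Over both lines SLC2A4RG rose with hairpin 3 against the control (log2 fold change 0.63, SE 0.122, adjusted p = 0.0328) and against hairpin 1 (0.61, SE 0.122, adjusted p = 0.0308). With hairpin 1 against the control the fold change was 0.02 (SE 0.121, adjusted p = 0.977). Set beside this, 6.71% of all genes were called with hairpin 3 against the control and 9.48% between the hairpins. SLC2A4RG ranked 871 by p with hairpin 3 against the control, and 8.89% of genes had a higher fold change. Levels with hairpin 3 above both hairpin 1 and the control in both lines, the pattern of SLC2A4RG, occurred in 22.7% of genes. The call against the control was lost without the control of A-498 (adjusted p = 0.204) or that of 786-O (adjusted p = 0.291). The call between the hairpins was lost without either control or without the hairpin 1 library of either line, with adjusted p from 0.057 to 0.168.

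ZNF704 was expressed in A-498 and nearly undetected in 786-O. In A-498 it had 1589 counts with hairpin 1 and 4191 with hairpin 3, against 2613 in the control, which is 19.8, 42.8 and 26.2 CPM. In 786-O it had 1 count with hairpin 1 and 1 with hairpin 3, against 4 in the control. With all constructs summed, A-498 had 8393 counts and 786-O had 6, a ratio of 1171 after scaling (95% counting interval 538 to 3191). No A-498 library comes near a 786-O library.

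Within A-498, ZNF704 stood at 1.63 times the control with hairpin 3 (95% counting interval 1.56 to 1.72) and at 0.757 times with hairpin 1 (0.711 to 0.806). Hairpin 3 gave 2.16 times the level of hairpin 1 (2.04 to 2.29). The 1 to 4 counts in 786-O show no direction, since the 95% interval of the ratio to the control there was 0.00512 to 2.55 with hairpin 1 and 0.00535 to 2.66 with hairpin 3. Over both lines ZNF704 did not pass edgeR's test with hairpin 1 (a log2 fold change of -0.48, adjusted p = 0.636, SE 0.289), with hairpin 3 (0.59, SE 0.286, adjusted p = 0.255) or between the hairpins (1.07, SE 0.286, adjusted p = 0.0643). For the last, 3.23% of genes had a higher fold change. The value with hairpin 3 rests on A-498: it was -1.41 without the control of A-498 and -1.38 without the hairpin 3 library of A-498. Without the hairpin 3 library of 786-O it was 0.71, where hairpin 3 is the A-498 library alone.

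**Figure D2:**
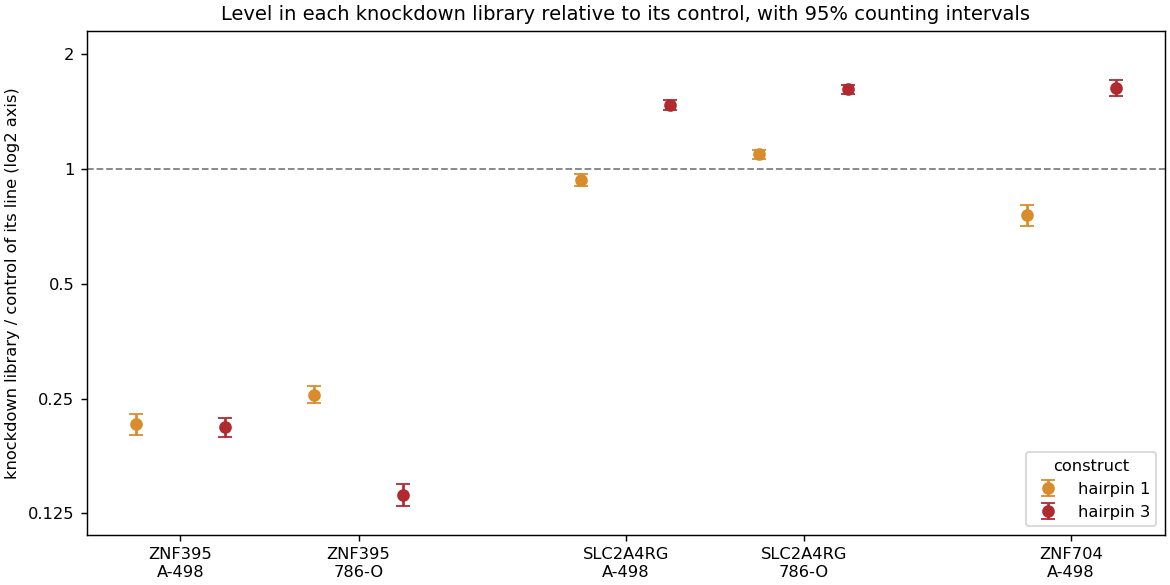
Ratio of each knockdown library to the control of the same line on a log2 axis, with 95% counting intervals, for ZNF395, SLC2A4RG and, in A-498, ZNF704. ZNF395 lies between 0.14 and 0.256, hairpin 3 lies between 1.47 and 1.63 for both relatives, and hairpin 1 lies between 0.757 and 1.09 for them.

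With the 2 hairpins pooled against the control, no member passed. The log2 fold change was -2.29 for ZNF395 (SE 0.235, adjusted p = 0.358), 0.35 for SLC2A4RG (SE 0.248, adjusted p = 0.95) and 0.05 for ZNF704 (SE 0.496, adjusted p = 0.997). In this edgeR model 0% of genes were called, with 1013 of 20144 at an unadjusted p under 0.05, while DESeq2 called 92 genes and limma-voom 1. DESeq2 called ZNF395 (adjusted p = 6.49e-11), as did edgeR with the hairpin number as a replicate block (log2 fold change -2.30, adjusted p = 0.0176). In the authors' deposited table, whose sign for ZNF395 shows control over knockdown, the opposite of the values above, SLC2A4RG has a log2 fold change of -0.28 (SE 0.232) and ZNF704 one of 0.07 (SE 0.285), both with an adjusted p of 0.9998. ZNF395 has 1.82 (SE 0.234) in the authors' deposited table, with an adjusted p of 5.48e-11 from their Wald test. The difference between the lines in the knockdown effect was 0.10 for ZNF395 (SE 0.561), -0.17 for SLC2A4RG (SE 0.552) and 2.1 for ZNF704 (SE 1.33), each with an adjusted p of 1. In that comparison 0% of genes were called by edgeR, 159 had an unadjusted p under 0.05, and DESeq2 and limma-voom also called 0.

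Between the lines, the 3 genes differed in separate ways. ZNF704 was higher in A-498 than in 786-O (fitted log2 fold change 10.1, SE 0.574, adjusted p = 6.23e-05), a value that is uncertain because 786-O holds so few reads. Only 0.308% of tested genes had a higher fold change between the lines. Since ZNF704 passed the filter on low counts through A-498 alone, its p and this rank are not separate support for the difference in counts. SLC2A4RG was lower in A-498 (-0.86, SE 0.232, adjusted p = 0.0216), at 0.510, 0.541 and 0.595 times the 786-O level with hairpin 1, hairpin 3 and the control. The call of SLC2A4RG was lost without the control of A-498 (adjusted p = 0.08) or of 786-O (adjusted p = 0.0841), and also when hairpin 3 of 786-O was left out (adjusted p = 0.0695). ZNF395 did not pass (-0.44, SE 0.231, adjusted p = 0.163), except without the hairpin 3 library of 786-O (-0.68, adjusted p = 0.02), and A-498 held 0.590, 1.06 and 0.705 times the 786-O level with hairpin 1, hairpin 3 and the control. Of all genes, 47.2% were called between the lines, so 2 called members of 3 are not set apart by their number.

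To compare the genes with each other, levels were divided by the length of all annotated exons, 5819 bases for ZNF395, 2244 for SLC2A4RG and 15008 for ZNF704, giving RPKM. On this per-length scale SLC2A4RG was the highest in all 6 libraries. In A-498 SLC2A4RG stood at 29 RPKM with hairpin 1, 45.6 with hairpin 3 and 30.9 in the control, and ZNF395 at 2.5, 2.45 and 11.7 RPKM. ZNF704 in A-498 stood at 1.32 RPKM with hairpin 1, 2.85 with hairpin 3 and 1.75 in the control, so it was above ZNF395 only with hairpin 3. In 786-O SLC2A4RG stood at 56.8 RPKM with hairpin 1, 84.3 with hairpin 3 and 52 in the control, and ZNF395 at 4.24, 2.32 and 16.6 RPKM.

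ZNF395 made up 7.62% of the summed RPKM of the 3 genes under hairpin 1 and 4.82% under hairpin 3 in A-498, against 26.3% in the control. In 786-O its share was 6.94% with hairpin 1 and 2.67% with hairpin 3, against 24.1% in the control. The sum itself was 32.8 RPKM under hairpin 1 and 50.9 under hairpin 3 in A-498, against 44.4 in the control. In 786-O the sum was 61.1 RPKM with hairpin 1 and 86.6 with hairpin 3, against 68.5 in the control. In both lines the sum was thus below the control with hairpin 1 and above it with hairpin 3. These shares depend on the annotation used for length, which need not be the one used for counting, and they were not tested.

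**Figure D3:**
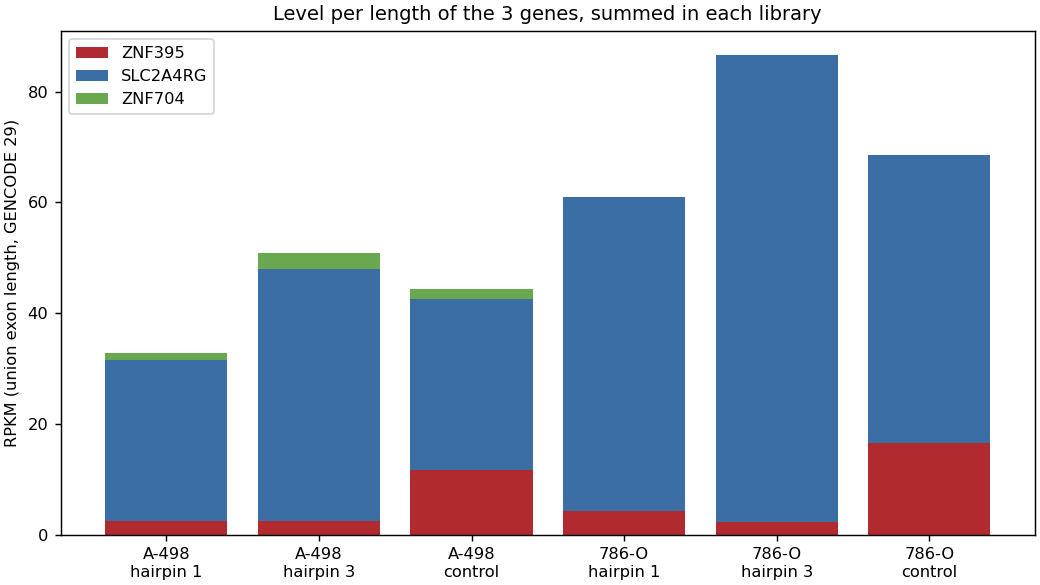
RPKM of ZNF395, SLC2A4RG and ZNF704 stacked for each library, using union exon lengths of GENCODE 29. SLC2A4RG is the largest part of every bar, and the total is 32.8 and 61.1 RPKM with hairpin 1, 50.9 and 86.6 with hairpin 3, and 44.4 and 68.5 in the controls of A-498 and 786-O.

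HTT and SLC2A4, the genes whose promoters gave this family its older names, were both lower with hairpin 3. HTT, which encodes huntingtin, stood in A-498 at 115 CPM with hairpin 1 and 75.6 CPM with hairpin 3, against 139 CPM in the control. In 786-O it stood at 179 CPM with hairpin 1 and 114 CPM with hairpin 3, against 163 CPM in the control. Hairpin 3 libraries were the lowest of each line, while hairpin 1 lay below the control in A-498 and above it in 786-O. HTT fell with hairpin 3 against the control (log2 fold change -0.71, SE 0.143, adjusted p = 0.0362) and against hairpin 1 (-0.63, SE 0.143, adjusted p = 0.0419), and did not pass with hairpin 1 against the control (-0.07, SE 0.142, adjusted p = 0.909). Levels with hairpin 3 below both others in both lines occurred in 23.4% of all genes. The fall against the control was lost without the control of A-498 (adjusted p = 0.322), the 786-O control (adjusted p = 0.0943) or the hairpin 3 library of A-498 (adjusted p = 0.0525). The call between the hairpins was lost without any 1 of 4 libraries, those with hairpin 1 in either line (adjusted p = 0.0709 in A-498 and 0.184 in 786-O), the 786-O control (0.0552) and the hairpin 3 library of A-498 (0.0719). HTT overlaps an antisense gene, and the strand setting of the counting is not stated in the labels used.

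SLC2A4 was barely expressed. It had 16 counts under hairpin 1 and 6 under hairpin 3 in A-498, against 38 in the control, and 4 and 1 counts in 786-O, against 7 in the control. In A-498 hairpin 3 gave 16.1% of the control (95% counting interval 5.56 to 38.4%) and hairpin 1 gave 52.4% (27.3 to 96.3%). In 786-O the intervals, 0.334 to 117% with hairpin 3 and 12.4 to 227% with hairpin 1, include the control level. With hairpin 3 SLC2A4 fell in edgeR's test, with a fitted log2 fold change of -2.60 (adjusted p = 0.0338, SE 0.512). With hairpin 1 it did not pass that test (-0.89, SE 0.427, adjusted p = 0.542). In A-498 SLC2A4 stood at 0.381 CPM in the control and 0.2 CPM with hairpin 1, and elsewhere at most at 0.0885 CPM. It passed the filter on low counts through those A-498 libraries alone, so its p is not separate support for the fall in counts. Only 5 of the fits that left out a library gave it a value. The call with hairpin 3 was lost without either control, without hairpin 1 in 786-O and without hairpin 3 in A-498, with adjusted p from 0.0657 to 0.436. SLC2A4 overlaps YBX2 on the opposite strand, so its few reads are uncertain.

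Sugar transporters of the SLC2A family, SLC2A4 included, moved in both directions with hairpin 3. Of 12 tested members, 1 rose and 3 fell against the control in edgeR, 33.3% where 6.71% of all genes were called, with a median log2 fold change of -0.62 against -0.01 for all genes. With hairpin 1 (median -0.01) edgeR, DESeq2 and limma-voom each called 0 of the 12, none of which had an unadjusted p under 0.05 in edgeR, and 0.149% of all genes were called. SLC2A3, the high-affinity glucose transporter GLUT3, stood in A-498 at 36 CPM with hairpin 1 and 153 CPM with hairpin 3, against 42.8 CPM in the control. In 786-O it stood at 32 CPM with hairpin 1 and 135 CPM with hairpin 3, against 27.5 CPM in the control. It rose with hairpin 3 (2.06, SE 0.158, adjusted p = 0.00973), although reads shared with its near-identical copy SLC2A14 make its count uncertain. SLC2A5, the fructose transporter GLUT5, had 324 counts under hairpin 1 and 76 under hairpin 3 in A-498, against 350 in the control. In 786-O SLC2A5 had 211 counts with hairpin 1 and 45 with hairpin 3, against 248 in the control. It fell with hairpin 3 (-2.28, SE 0.244, adjusted p = 0.0123). The call of SLC2A3 and that of SLC2A5 held without each library in turn, with adjusted p from 2.11e-04 to 0.0467. SLC2A10 also fell with hairpin 3 (-0.97, SE 0.155, adjusted p = 0.0212), a call lost without the control of A-498 (adjusted p = 0.19) or that of 786-O (adjusted p = 0.108). SLC2A1, the main basal glucose transporter GLUT1, stood at 321 CPM under hairpin 1 and 256 CPM under hairpin 3 in A-498, against 276 CPM in the control, and at 606 and 670 CPM in 786-O, against 598 CPM in the control. Between the hairpins SLC2A6 was also called, lower with hairpin 3 (-0.998, SE 0.213, adjusted p = 0.0365), a call lost without the hairpin 1 library of A-498 (adjusted p = 0.102) or of 786-O (0.0926).

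**Figure D4:**
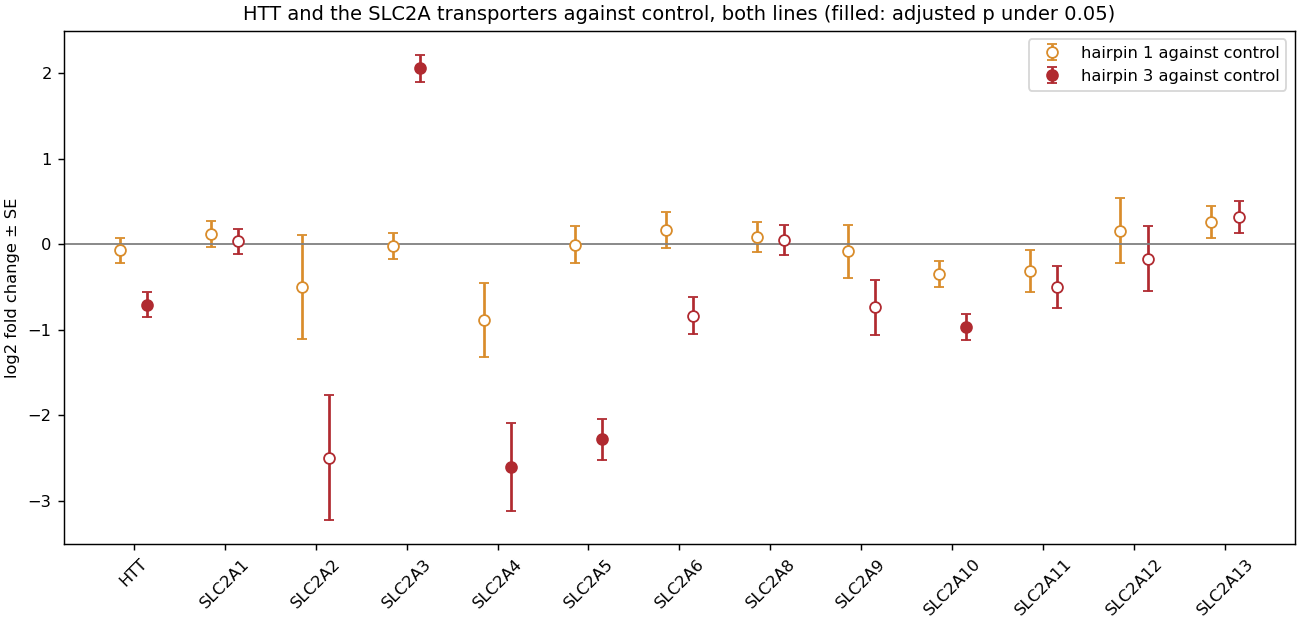
Log2 fold change with its SE over both lines for HTT and the 12 tested SLC2A transporters, with hairpin 1 and hairpin 3 each against the control. Filled points passed at an adjusted p under 0.05: with hairpin 3 these are SLC2A3 above 0 (2.06) and HTT, SLC2A4, SLC2A5 and SLC2A10 below it (-0.71 to -2.60), and none is filled with hairpin 1.

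SLC2A4RG is known to act at the SLC2A4 promoter beside MEF2 factors and class IIa histone deacetylases. Of 7 such genes tested, edgeR called HDAC9 alone with hairpin 3 against the control, where 6.71% of all genes were called (0.63, SE 0.116, adjusted p = 0.0288), a call lost without the control of A-498 (adjusted p = 0.292) or that of 786-O (adjusted p = 0.218). With hairpin 1 edgeR and limma-voom called 0 of the 7, with 4 at an unadjusted p under 0.05 in edgeR, and 0.149% of all genes were called. HDAC9 (0.84, SE 0.116, adjusted p = 0.079 in edgeR) was called there by DESeq2 (adjusted p = 1.23e-06), without the filter on low counts (0.0039) and without the hairpin 3 library of A-498 (0.0153) or of 786-O (0.00964). HDAC4 had a fold change of 0.39 (SE 0.142, adjusted p = 0.149) with hairpin 3. Of 18 partners and regulators of ZNF395, which include the 14-3-3 proteins that hold it in the cytoplasm, the kinases AKT and IKK, and the SIN3-HDAC corepressor, edgeR called 1 with hairpin 3, 5.56% against 6.71% of all genes, and DESeq2 called 3. With hairpin 1 edgeR, DESeq2 and limma-voom called 0 of the 18, with 1 at an unadjusted p under 0.05 in edgeR. The gene called by edgeR was the 14-3-3 gene YWHAE, which fell (-0.69, SE 0.126, adjusted p = 0.0284), with the call lost without the control of A-498 (adjusted p = 0.226) or that of 786-O (adjusted p = 0.175). The median fold change of the 18 genes was 0.12 with hairpin 1 and -0.04 with hairpin 3. Between the hairpins, where 9.48% of all genes were called, AKT2 (0.72, adjusted p = 0.0204), SAP30 (0.63, adjusted p = 0.0427) and HDAC4 (0.86, adjusted p = 0.0204) were higher with hairpin 3, and YWHAE (-0.90, adjusted p = 0.0134), HDAC1 (-0.54, adjusted p = 0.0488) and MEF2C (-0.68, adjusted p = 0.048) were lower. Each of these 6 calls was lost without the hairpin 1 library of 786-O, with adjusted p from 0.0656 to 0.209.

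Of 9 listed genes reported to respond to ZNF395 in other human cells, 8 were tested and CXCL8 was not analysed here. IL6 was higher in all 4 knockdown libraries than in the control of the same line, as were IFI44 and LIF. The share of this pattern among all genes was not computed. All 8 tested members had a positive log2 fold change with hairpin 1 (median 1.28), and 7 had one with hairpin 3 (median 0.51). The medians of all genes were -0.004 and -0.01. These are fits over both lines, which were not alike. With hairpin 1 IFIT1 stood at 490 CPM in A-498, against 80.4 in the control. In 786-O it stood at 44.1 CPM, against 43.4. With hairpin 3 IFIT1 was above the control in A-498, at 211 CPM, and below it in 786-O, at 25.4 CPM. IFI16 stood with hairpin 1 at 424 against 184 CPM in A-498 and at 91.77 against 92.05 in 786-O. With hairpin 3 IFI16 was above the control in both lines, at 289.5 CPM in A-498 and 110.6 CPM in 786-O. IFI44 and IL6 were above the control in both lines with either hairpin. LIF was above it with hairpin 1 and near it with hairpin 3 (log2 fold change 0.05, SE 0.124). With hairpin 3 LIF stood at 162.2 against 154.1 CPM in A-498 and at 157.4 against 154.5 CPM in 786-O. In 786-O CXCL10, CXCL11 and IL1B had at most 39 counts per library. With hairpin 3 edgeR called only IL6, an inflammatory cytokine (1.23, SE 0.224, adjusted p = 0.0288), where 6.71% of all genes were called, while DESeq2 and limma-voom each called 2 of the 8. With hairpin 1 edgeR called 0, with 6 at an unadjusted p under 0.05, while DESeq2 called 3 and limma-voom 1, and edgeR without the filter on low counts called 4. Of all genes edgeR called 0.149% with hairpin 1. IL6 stood in A-498 at 58.6 CPM with hairpin 1 and 30.9 CPM with hairpin 3, against 17.3 CPM in the control. In 786-O it stood at 18.8 CPM with hairpin 1 and 17.8 CPM with hairpin 3, against 5.88 CPM in the control. The call with hairpin 3 was lost without the control of A-498 (adjusted p = 0.0869) or that of 786-O (adjusted p = 0.155). With hairpin 1 IL6 had a fold change of 1.72 (SE 0.225, adjusted p = 0.0714 in edgeR), and it was called by DESeq2 (adjusted p = 1.6e-08) and without the filter (4.72e-05). The chemokine gene CXCL11 was not called by edgeR, at 2.25 with hairpin 1 (SE 0.347, adjusted p = 0.105), and under hairpin 3 it was 1.55 (SE 0.353, adjusted p = 0.0501). Its call depended on the setting. DESeq2 called it with hairpin 1 (adjusted p = 8.06e-06) and with hairpin 3 (0.00169), as did limma-voom (0.0494 and 0.0319) and edgeR without the filter (2.05e-04 and 0.0022). Between the hairpins the cytokine gene IL1B was lower with hairpin 3 (-2.21, SE 0.418, adjusted p = 0.0268 in edgeR). That call was lost without the hairpin 1 library of A-498 or of 786-O or the hairpin 3 library of A-498. IL1B had 357 counts under hairpin 1 and 101 under hairpin 3 in A-498, but only 11 and 2 in 786-O. Glucocorticoid response genes, listed because of the mouse name of ZNF704, had 0 called of 7 by edgeR, DESeq2 and limma-voom with either hairpin against the control, with a median of -0.14 with hairpin 1 and 0.34 with hairpin 3. In edgeR 1 of the 7 had an unadjusted p under 0.05 with hairpin 1 and 2 with hairpin 3.

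Of 442 tested genes named ZNF with a number, leaving out the members, 1.13% were called by edgeR with hairpin 3 against the control (3 up and 2 down), where 6.71% of all genes were, and DESeq2 called 27. With hairpin 1 edgeR and limma-voom called 0, with 15 at an unadjusted p under 0.05 in edgeR, and DESeq2 called 3. In edgeR between the hairpins 3.62% were called, where 9.48% of all genes were. These shares were not tested against each other. The called genes with hairpin 3 were ZNF697 (1.01), ZNF800 (0.56) and ZNF689 (0.64) upward and ZNF365 (-1.26) and ZNF792 (-1.03) downward, chosen for naming after their values were seen.

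Of 7 tested genes beside ZNF395 on its chromosome, 0 were called by edgeR with either hairpin against the control, where 0.149% of all genes were called with hairpin 1 and 6.71% with hairpin 3. In edgeR 2 of the 7 had an unadjusted p under 0.05 with hairpin 1 and 0 with hairpin 3, and DESeq2 called 1 with hairpin 1 and 0 with hairpin 3, limma-voom 0 with either. Between the hairpins, where 9.48% of all genes were called, EXTL3 (1.08, adjusted p = 0.0124) and FZD3 (0.95, adjusted p = 0.0488) were higher with hairpin 3 than with hairpin 1. Against the control EXTL3 had -0.83 with hairpin 1 and 0.25 with hairpin 3, and FZD3 had -0.55 and 0.39. EXTL3 stood in A-498 at 22.4 CPM with hairpin 1 and 51.4 CPM with hairpin 3, against 46.4 CPM in the control. In 786-O EXTL3 stood at 29.9 and 58.5 CPM, against 45.4 CPM. The call of EXTL3 held without each library in turn. The call of FZD3 held when hairpin 3 of 786-O was left out and was lost without any 1 of the other 5 libraries, with adjusted p from 0.0729 to 0.265. FBXO16, which overlaps ZNF395 on the same strand, had 230 counts under hairpin 1 and 190 under hairpin 3 in A-498, against 321 in the control, and 192 and 134 in 786-O, against 174 in the control. Its fold change was -0.01 with hairpin 1 (SE 0.226, adjusted p = 0.992), and under hairpin 3 it was -0.52 (SE 0.228, adjusted p = 0.207), and its counts are under those of ZNF395 in every library. Of 8 tested neighbours of SLC2A4RG, edgeR, DESeq2 and limma-voom called 0 with hairpin 3, with 1 at an unadjusted p under 0.05 in edgeR, and their median fold change was 0.17. SLC2A4RG overlaps AL121845.2 on the same strand, so its count is uncertain to that extent. Of 7 tested neighbours of ZNF704, the Notch target HEY1 (1.70, SE 0.346, adjusted p = 0.037) and the adaptor gene PAG1 (1.05, SE 0.201, adjusted p = 0.032) rose with hairpin 3, 28.6% of that list. HEY1 lost its call without the control of A-498 (1.12, adjusted p = 0.239) or the hairpin 1 library of 786-O (adjusted p = 0.0616), and PAG1 without the control of 786-O (adjusted p = 0.183) or the hairpin 1 library of 786-O (adjusted p = 0.0515).

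The genes whose pattern over the 6 libraries was most like each member were taken from genes averaging 5 CPM or more, by Pearson's r of log2 CPM. The libraries share lines and constructs, so r is a description only. For ZNF395 they were FGFR3, a fibroblast growth factor receptor (r 0.952), CD24P4 (0.924), a copy related to CD24 whose reads are uncertain, SLC29A4 (0.892), KCNJ16 (0.847) and PYCR1 (0.819). FGFR3 stood at 6.43 CPM under hairpin 1 and 5.95 under hairpin 3 in A-498, against 14 in the control, and at 10.4 and 7.1 in 786-O, against 30.8 in the control. For SLC2A4RG they were NUTM2A-AS1 (0.998), NIPA1 (0.997), the kinesin gene KIF5B (0.996), SKI (0.996), a corepressor of TGF-beta signalling, and TMED1 (0.996). For ZNF704 they included ADAMTS7 (1.00), GRIN2D (0.999), AC006262.5 (0.999) and the collagen gene COL5A1 (0.999). ADAMTS7 stood at 33.8 CPM under hairpin 1 and 62.1 under hairpin 3 in A-498, against 43.1 in the control, and at no more than 0.696 CPM in 786-O, so the likeness to ZNF704 follows the difference between the lines.

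**Figure D5:**
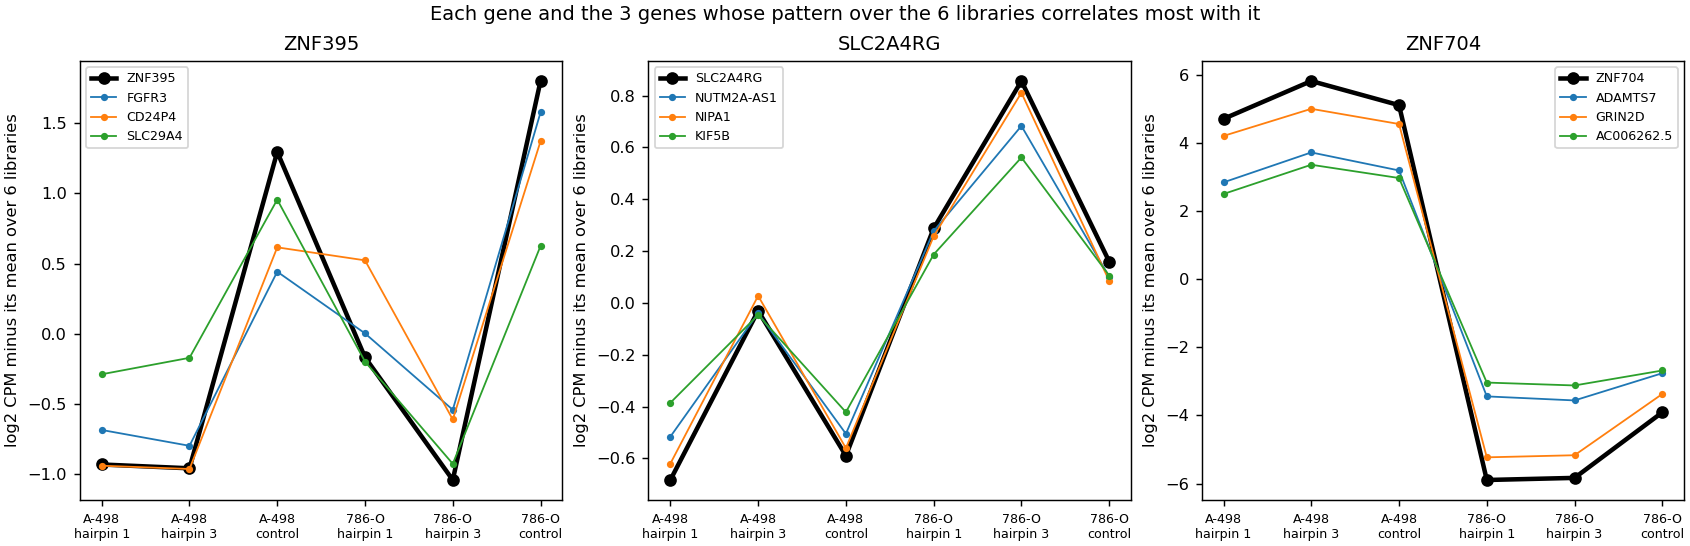
Log2 CPM of each member (black) and its 3 most alike genes, each minus its own mean over the 6 libraries, with libraries on the horizontal axis. The genes near SLC2A4RG are highest with hairpin 3 in each line (r 0.996 to 0.998), and those near ZNF704 are high in A-498 and low in 786-O (r 0.999 to 1.00).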

How the data were processed

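RNA of 6 libraries was measured by sequencing of total RNA libraries made with a stranded kit, per the labels' protocols. The deposited file holds whole-number counts per gene symbol without normalization. The submitters' processing notes name the tools STAR and DESeq2 and the builds hs37d5 and hg19. Versions, the counting tool, the annotation and whether strand was used: not given in the sources used here. The authors also deposited a mean signal, a log2 fold change with SE, a Wald score and a p-value per gene, per the file headers; 0 number columns were left unlisted.

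Counts were tested with edgeR 4.0.16 (quasi-likelihood F test, TMM scaling, edgeR's expression filter over knockdown status, Benjamini-Hochberg adjustment, call at an adjusted p under 0.05; SE from the F statistic) in R 4.3.3. Hairpin comparisons used line and construct, pooled knockdown and lines used line and knockdown status, and the difference between lines used 4 means. In the hairpin comparisons the lines serve as replicates. Alternatives were DESeq2 1.42.0, limma-voom (limma 3.58.1), other scalings, no filter, a hairpin block and leaving out each library. In the hairpin comparisons, leaving out a library of a compared construct leaves that construct with 1 library, so calls held or gained there are not replicated tests. The script was run on data drawn from real means, with no difference between the lines and a common spread for all genes. That run is a check of the code and no support for the calls. Levels per length used union exon lengths of GENCODE 29 (GRCh38), although the authors' build is hg19. Counting intervals are exact (95%) and cover counting error only. Total counts of 77534125 to 99147218 per library set the depth. Log CPM used a prior count of 2.

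Replicate numbers name the hairpin and so pair the lines by reagent. Over 11027 genes, the log2 ratio of hairpin 3 to hairpin 1 in A-498 had r 0.577 with that in 786-O. The members and lists were chosen with earlier results of these data known. Named genes were the members, called or smallest-p list genes, called neighbours among 5 protein-coding genes per side in RefSeq on GRCh38.p14, and the 5 most alike genes in Pearson's r whose SD over libraries was at least 0.5 times the member's, the ZNF list having been added after its values were seen. Of the genes named by this rule, 1 is not reported here.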

Additional observations from a re-analysis of the deposited data

Results flagged for a closer look

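Results are listed here where the hairpin over control ratios of the 2 lines lay on opposite sides of 1 for a gene whose single-library ratios were computed. None of these differences was tested for its hairpin, since each line has 1 library per construct.

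With hairpin 1 over the control, SLC2A4RG had a log2 ratio of -0.094 in A-498 and 0.13 in 786-O. HTT had -0.27 in A-498 and 0.13 in 786-O, and SLC2A3 had -0.25 in A-498 and 0.22 in 786-O. SLC2A5 had 0.20 in A-498 and -0.22 in 786-O, and FBXO16 had -0.17 in A-498 and 0.16 in 786-O. ZNF704 with hairpin 3 over the control had 0.71 in A-498. In 786-O it had -1.93, from counts of 1 and 4, and the 95% counting interval of that ratio includes 1, so its direction there was not detectable at this depth.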

How the results depend on the processing

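Under the alternatives that kept all libraries, the members kept their direction and side of the threshold in 94 comparisons, gained a call in 4 and reversed in 1. Leaving out a library gave 76 the same, 12 lost calls, 4 gained and 10 reversed; the cause was not tested. Called genes numbered 30 with hairpin 1, 1351 with hairpin 3 and 1910 between the hairpins; without the filter they numbered 478, 2654 and 3117, and with DESeq2 474, 2623 and 2990. Leaving out a library gave 0 to 608 with hairpin 1, 121 to 2337 with hairpin 3, 249 to 3312 between the hairpins, 0 to 0 for pooled knockdown and 5581 to 8587 between the lines, where 9501 were called. Pooled knockdown had 92 calls with DESeq2, 1 with limma-voom and 26 with the hairpin number as a replicate block. ZNF395 under pooled knockdown was called with DESeq2 (-2.29) and with the replicate block (-2.30), which changed no other member's call. ZNF704 between the hairpins was called without the filter (1.06) and with limma-voom (1.08), and under pooled knockdown was -0.21 with DESeq2.

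Without 1 library each, ZNF395 ranged from -2.38 to -1.83 with hairpin 1, -2.92 to -2.17 with hairpin 3, -0.82 to -0.071 between the hairpins, -2.50 to -2.12 pooled, -0.68 to -0.17 between the lines and -0.25 to 0.65 for the difference between lines. SLC2A4RG ranged from -0.064 to 0.094, 0.56 to 0.69, 0.53 to 0.69, 0.20 to 0.49, -1.05 to -0.67 and -0.51 to 0.16 in the same order. ZNF704 ranged from -2.49 to -0.38, -1.41 to 0.72, -0.94 to 1.53, -1.86 to 0.41, 9.65 to 11.09 and 1.46 to 2.55. HTT with hairpin 1 reached 0.10 without the control of A-498 and 0.043 without its hairpin 1 library, and CA9 between the hairpins ranged from -1.39 to 2.65. The difference between lines could not be estimated without either control. DESeq2 gave no adjusted p for SLC2A4 with hairpin 3. With 1 to 4 reads of ZNF704 per 786-O library, a change there was not detectable at this depth.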
